A study of Homo sapiens with 4 samples.

Results

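The G1/S cyclins, cyclin-dependent kinases (CDKs) and pocket proteins were compared between Kasumi-1 cells with and without ANP32B knockdown. The members were chosen by name, and they are the D-type cyclins CCND2 and CCND3, the E-type cyclins CCNE1 and CCNE2, the kinases CDK2, CDK4 and CDK6, and the pocket proteins RB1, RBL1 and RBL2. All 10 were found in the deposited table of 18567 genes, and all 10 passed the filter on low values that left 16817 genes for testing. RNA from 4 samples of Kasumi-1, a leukemia line established from acute myeloid leukemia (AML), was sequenced, with 2 samples in the control group (NC) and 2 in the ANP32B knockdown group (sh-ANP32B). No other treatment was labelled in either group. The labels call the NC samples untreated and give their shRNA as none. The study describes a control hairpin and selection with puromycin, so the sources differ, and infection and selection cannot be told apart from knockdown if the NC samples carried none. Which ANP32B hairpin each sh-ANP32B sample carried is not given in the sources used here. The study states that experiments were repeated independently, but not whether these replicates came from separate infections, so p-values measure only the spread between these samples.

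Passage from G1 into S phase is governed by the retinoblastoma pathway. D-type cyclins activate CDK4 and CDK6, and E-type cyclins activate CDK2. These kinases phosphorylate the pocket proteins, which in their less phosphorylated form bind E2F transcription factors and hold back the genes of DNA replication. RB1 mainly restrains activating E2Fs, whereas RBL1 (p107) and RBL2 (p130) work with the repressive E2Fs, and RBL2 is known as the pocket protein of quiescent cells within the DREAM complex. CCNE1, CCNE2 and RBL1 are themselves known E2F target genes, and CDK4 is a known MYC target. In blood cells the D-type cyclins used are mostly CCND2 and CCND3, and CDK6 is known for its role in hematopoietic cells.

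Promoter windows from RefSeq (GRCh38.p14) were available for 7 of the members, and the 250 bases before the start site were searched on both strands for 4 kinds of letters. An E2F match was read as TTCCCGC, or as the variant TTCGCGC, or as the variant TTGCCGC, or as the variant TTGGCGC. A CHR match was read as TTTGAA, or as the variant TTCGAA. The E-box was searched as CACGTG and the GC box as GGGCGG. The 3 stretches printed here were chosen after the matches were seen, because each carried the most matches of 1 motif among the windows of the members, and CDK4 was in addition the member that passed the test. The motif is in capitals, as read 5′ to 3′ on the strand of the gene.
CDK4, chr12:57752448-57752560, minus strand, E-box: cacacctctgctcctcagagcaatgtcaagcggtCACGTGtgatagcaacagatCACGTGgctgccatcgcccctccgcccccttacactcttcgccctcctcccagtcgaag
RBL1, chr20:37095998-37096117, minus strand, E2F: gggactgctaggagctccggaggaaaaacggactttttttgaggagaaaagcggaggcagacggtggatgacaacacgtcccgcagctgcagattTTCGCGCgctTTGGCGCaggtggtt
CCNE1, chr19:29811831-29811950, plus strand, GC box: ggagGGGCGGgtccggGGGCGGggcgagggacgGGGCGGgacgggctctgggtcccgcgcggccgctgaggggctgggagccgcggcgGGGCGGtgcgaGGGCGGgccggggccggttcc
The CDK4 window held 3 E-boxes, 2 of them in the stretch shown, where 6.34% of all 35116 promoter windows held at least 1 and 0.0797% held at least 3. RBL1 was the only member whose window held the E2F letters, with 2 matches, which begin at positions -25 and -15 relative to the start site. At least 1 such match was found in 10.9% of all windows and at least 2 in 1.35%. The whole CCNE1 window held 7 GC boxes, 5 of them shown, and 1.12% of all windows held that many. No window of the members held the CHR letters, which 14.3% of all windows did. By the gene spans of GENCODE v44 the windows of CDK4, CCND3, RB1 and RBL2 and 1 of the 2 of CDK6 lie inside the gene, before a start site that is not the outermost, and those of CCNE1 and RBL1 lie outside it. The stretch of RBL1 lies within an exon of the antisense noncoding gene ENSG00000269846, and no GENCODE v44 exon overlaps the stretches of CDK4 and CCNE1. A match describes the letters and does not show that a factor was bound.

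The targeted gene ANP32B had 384 and 392 TPM (a measure of transcript abundance scaled by transcript length and by the total of each sample) in the NC samples, against 51.8 and 41.2 TPM with knockdown, so the knockdown samples lay far below the controls. Values of single samples are given in the order of replicate 1 and replicate 2 throughout. Of the markers fixed for the line, RUNX1T1, whose fusion with RUNX1 defines Kasumi-1, had 15.6 to 31.2 TPM, and RUNX1, CD33, PTPRC, SPI1 and KIT were also detected, KIT at only 1.55 to 3.41 TPM. Of the 8 markers fixed for the line 6 were among the genes analysed, and CD34 and MPO were not. Of the 10 markers of mature monocytes and granulocytes 7 were in the table, none of them listed at 0 in all samples. Their summed level was 778 to 801 TPM in NC and 1530 to 1543 TPM in sh-ANP32B, and 2 of the 7, LYZ and CSF3R, rose. Among markers of other cell types CD2 rose from 1.57 to 1.65 TPM in NC to 9.25 to 9.49 TPM in sh-ANP32B. No erythroid, megakaryocyte, epithelial or fibroblast marker was among the genes analysed. The part of cell maturation in the differences given here was not tested. In bulk RNA a lower share of cycling cells and less RNA per cell cannot be told apart.

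In the NC samples the members spanned from 7.43 to 143 TPM. TPM is scaled by transcript length, so levels of different genes can be set side by side. RB1 (143 ± 9.25 TPM, SD, n = 2) and CDK4 (138 ± 0.0734) stood at the top with overlapping ranges, followed by RBL2 (112 ± 5.08) and CDK2 (104 ± 5.81), whose ranges also overlapped. CCND3 stood alone at 66.2 ± 1.81 TPM. CDK6 (33.5 ± 2.54), CCNE2 (28.8 ± 7.36) and RBL1 (23.6 ± 2.02) followed, each overlapping the next. CCND2 (19.1 ± 0.0511) and CCNE1 (7.43 ± 1.81) were the lowest, each separate from its neighbours. CCND1, the D-type cyclin that is not a member, had 0.565 and 0.483 TPM in the NC samples, against 0.686 and 0.980 TPM with knockdown, and did not pass the filter. With knockdown RB1 and RBL2 (144 ± 32.8 and 132 ± 17.8 TPM) stood at the top, followed by CDK4 at 78.4 ± 8.41 TPM, separate from RBL2.

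**Figure D1:**
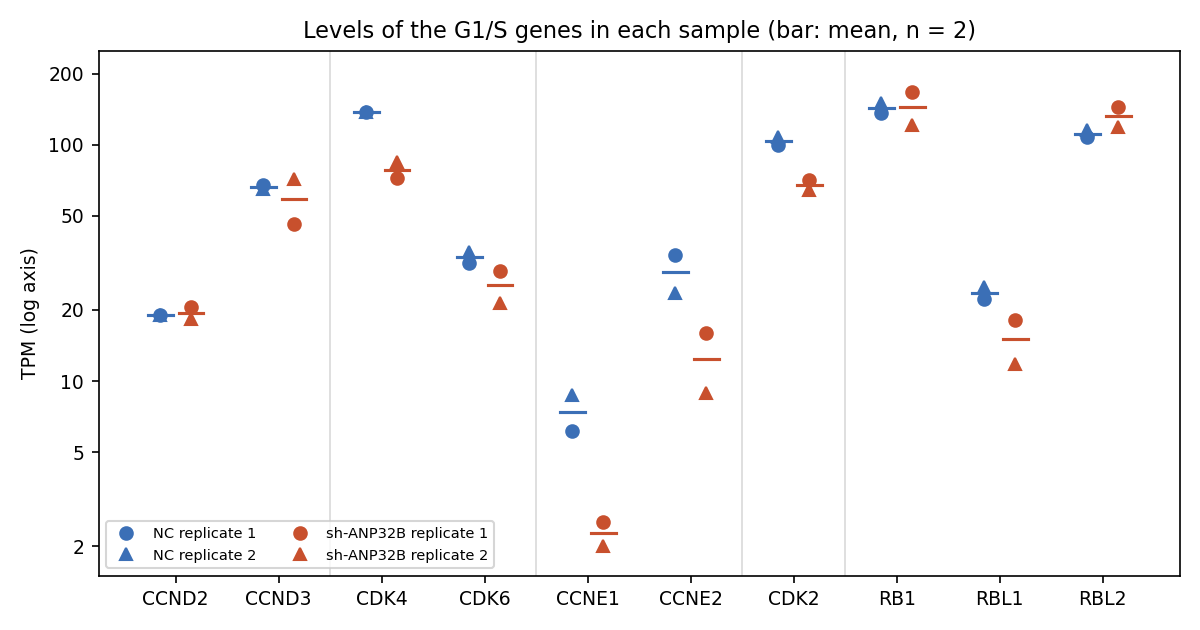
TPM of the 10 members on a log axis in NC (blue) and sh-ANP32B (orange), with circles for replicate 1, triangles for replicate 2 and bars for the mean of 2 samples. Both sh-ANP32B points lie below both NC points for CDK4, CDK6, CCNE1, CCNE2, CDK2 and RBL1, above them for RBL2, and on either side of both NC points for CCND2, CCND3 and RB1.

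Comparing the groups, CDK4 was the only member to pass the test, and it fell. In limma 1 of the 10 members had an adjusted p under 0.05, lower in sh-ANP32B, against a background of 1.18% of all genes tested that were lower at this threshold (3.32% in either direction). Without NC replicate 1 the 1 member that passed was CCNE1, with a background of 0.476% lower, and without NC replicate 2 it was CCNE2, with a background of 0.351% lower. Without sh-ANP32B replicate 1 there were 6 members that passed, all lower, with a background of 9.68%. Without sh-ANP32B replicate 2 there were 5 lower and 1 higher (RBL2), with backgrounds of 8.47% and 12.3%. By the criterion of the study, an unadjusted p under 0.05 with an absolute log2 fold change over 0.5, 5 members were lower (CDK4, CDK2, CCNE1, CCNE2 and RBL1) and 0 higher, with a background of 6.55% lower, 12.1% higher and 18.6% in all. Both sh-ANP32B samples lay below both NC samples in 6 members, with a background of 21.4%, and above them in 1 member, with a background of 33.2% (54.6% in either direction). The median log2 fold change was -0.51 over the members and 0.08 over all genes tested. All fold changes were taken from log2(TPM + 1), so that changes of genes with low levels are understated.

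**Figure D2:**
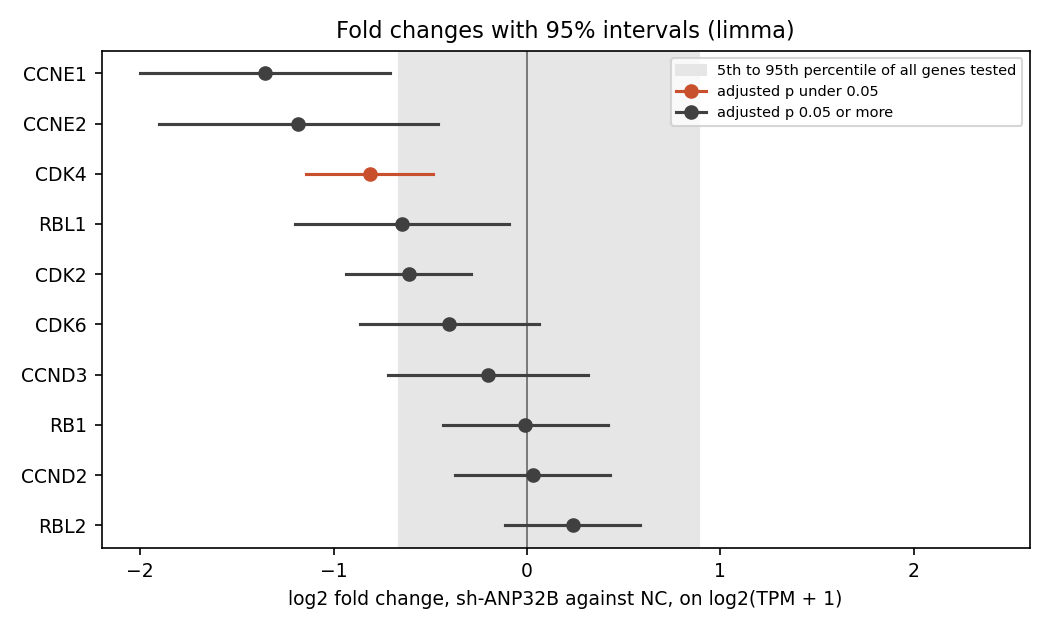
Log2 fold change of each member on log2(TPM + 1), sh-ANP32B against NC, with its 95% interval from limma, orange where the adjusted p was under 0.05. The grey band holds the 5th to 95th percentile of all 16817 genes tested (-0.66 to 0.89). CCNE1, CCNE2 and CDK4 lie below the band, and only CDK4 is orange.

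CDK4, the kinase partner of the D-type cyclins (ENSG00000135446, chromosome 12, 57747727 to 57756013, minus strand, hg38), had 138.2 and 138.1 TPM in the NC samples, against 72.4 and 84.3 TPM with knockdown. The groups did not overlap, and the NC replicates were nearly equal. The mean in sh-ANP32B was 56.7% of that in NC, and the log2 fold change was -0.81 (SE 0.137, 95% interval -1.14 to -0.49, limma adjusted p 0.0426). The call needed both NC samples. At the same fold change the limma adjusted p came to 0.211 without NC replicate 1 and to 0.220 without NC replicate 2. Without sh-ANP32B replicates 1 and 2 the log2 fold change was -0.71 and -0.92. In limma 9 of 10 alternative fits that kept every sample gave an adjusted p under 0.05, with a range of 0.00520 to 0.121. The highest came when the abundance trend was left out of the fit, where 0 of all genes passed. The promoter stretch printed for CDK4 carries E-boxes. MYC, the gene of a factor known to bind that motif, had 130.8 and 143.8 TPM in the NC samples, against 56.7 and 63.2 TPM with knockdown. The part of MYC in the level of CDK4 was not tested. The exons of CDK4 overlap those of TSPAN31 on the opposite strand over 44.2% of their length in GENCODE v44, and use of strand in the counting is not given in the sources used here. TSPAN31 had 7.59 and 9.49 TPM in the NC samples, against 11.1 and 11.0 TPM with knockdown, which is low beside CDK4.

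CDK6, the other D-cyclin kinase (ENSG00000105810, chromosome 7, 92604921 to 92836573, minus strand), had 31.7 and 35.3 TPM in the NC samples, against 29.3 and 21.5 TPM with knockdown. The groups did not overlap, but sh-ANP32B replicate 1 lay close to NC replicate 1. The log2 fold change was -0.40 (SE 0.194, 95% interval -0.86 to 0.06, limma adjusted p 0.267), which did not pass. Without sh-ANP32B replicate 1 it was -0.62 (limma adjusted p 0.0132) and without sh-ANP32B replicate 2 it was -0.19 (limma adjusted p 0.370).

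The D-type cyclins showed no difference beyond the spread between replicates. CCND2 (ENSG00000118971, chromosome 12, 4269771 to 4305353, plus strand) was at 19.1 and 19.0 TPM in the NC samples, against 20.6 and 18.3 TPM with knockdown. Its NC values lay between the sh-ANP32B values. The log2 fold change of 0.03 had a 95% interval of -0.37 to 0.43 (limma adjusted p 0.943), and after median-of-ratios scaling it was -0.06. CCND3 (ENSG00000112576, chromosome 6, 41934934 to 42050357, minus strand) had 67.5 and 65.0 TPM in the NC samples, against 46.1 and 71.7 TPM with knockdown. The sh-ANP32B replicates lay on either side of NC. Its log2 fold change was -0.20 (95% interval -0.72 to 0.32, limma adjusted p 0.631). Without sh-ANP32B replicate 2 it was -0.51 (limma adjusted p 0.0126) and without sh-ANP32B replicate 1 it turned to 0.11 (limma adjusted p 0.487). CCND2 and CCND3 together summed to 86.6 and 84.0 TPM in NC and to 66.7 and 90.1 TPM in sh-ANP32B, so the groups overlapped.

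The E-type cyclins had the most negative log2 fold changes of the 10 members, and neither passed the test over all genes. CCNE1 (ENSG00000105173, chromosome 19, 29811991 to 29824312, plus strand) was at 6.15 and 8.71 TPM in the NC samples, against 2.53 and 2.01 TPM with knockdown. Both knockdown samples lay below both controls, and the mean was 30.6% of that in NC. The log2 fold change was -1.35 (SE 0.271, 95% interval -2.0 to -0.71, limma adjusted p 0.0514). It lay close to the threshold, and the limma adjusted p was under 0.05 in 6 of 10 alternative fits, with a range of 0.00247 to 0.114, and in 3 of the 4 fits that each left out a sample. The exception was the fit without NC replicate 2, the higher control, where the log2 fold change was -1.13 (limma adjusted p 0.272).

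CCNE2 (ENSG00000175305, chromosome 8, 94879770 to 94896678, minus strand) had 34.0 and 23.6 TPM in the NC samples, against 16.0 and 8.89 TPM with knockdown. The groups did not overlap, though both groups spread widely, and the mean was 43.1% of that in NC. The log2 fold change was -1.18 (SE 0.302, 95% interval -1.90 to -0.46, limma adjusted p 0.0816). The lowest limma adjusted p of CCNE1 and of CCNE2 came from the fit with the replicate number as a block, although these numbers were not taken as pairs. In limma 3 of 10 alternative fits of CCNE2 gave an adjusted p under 0.05, with a range of 0.000409 to 0.159. It was 0.0117 without NC replicate 2, 0.00135 without sh-ANP32B replicate 1, 0.0285 without sh-ANP32B replicate 2 and 0.218 without NC replicate 1. The exons of CCNE2 overlap those of INTS8 on the opposite strand over 37.0% of their length, and INTS8 was the more abundant gene, with 84.5 and 88.3 TPM in the NC samples, against 101 and 85.6 TPM with knockdown, so the level of CCNE2 is uncertain. Apart from CCNE2 and CDK4, no member shared more than 14.5% of its exon length with any 1 other gene. Together the E-type cyclins summed to 40.2 and 32.3 TPM in NC and to 18.5 and 10.9 TPM in sh-ANP32B.

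CDK2, the kinase partner of the E-type cyclins (ENSG00000123374, chromosome 12, 55966781 to 55972789, plus strand), was at 100.1 and 108 TPM in the NC samples, against 71.1 and 64.6 TPM with knockdown. The groups were well apart and the replicates close to each other. The mean was 65.1% of that in NC, and the log2 fold change was -0.61 (SE 0.135, 95% interval -0.94 to -0.29, limma adjusted p 0.0608). In limma 4 of 10 alternative fits gave an adjusted p under 0.05, with a range of 0.0103 to 0.154. It was 0.00220 and 0.00810 without sh-ANP32B replicates 1 and 2, and 0.382 and 0.543 without NC replicates 1 and 2.

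None of the 3 pocket proteins passed the test. RB1 (ENSG00000139687, chromosome 13, 48303744 to 48599436, plus strand) was at 136.5 and 149.6 TPM in the NC samples, against 167 and 121 TPM with knockdown. The sh-ANP32B replicates lay on either side of NC, and their SD of 32.8 TPM was larger than the 9.25 TPM of NC. The log2 fold change was -0.01 (95% interval -0.44 to 0.42, limma adjusted p 0.987). It was -0.24 without sh-ANP32B replicate 1 and 0.22 without sh-ANP32B replicate 2.

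RBL1 (ENSG00000080839, chromosome 20, 36996349 to 37095997, minus strand), whose promoter held the E2F letters, had 22.1 and 25.0 TPM in the NC samples, against 18.2 and 11.8 TPM with knockdown. Both knockdown samples lay below both controls. The mean was 63.6% of that in NC, and the log2 fold change was -0.65 (SE 0.231, 95% interval -1.20 to -0.09, limma adjusted p 0.160). Without sh-ANP32B replicate 1 it was -0.93 (limma adjusted p 0.00397), and without sh-ANP32B replicate 2 it was -0.36 (limma adjusted p 0.140). RBL2 (ENSG00000103479, chromosome 16, 53433977 to 53491648, plus strand) was at 108 and 115 TPM in the NC samples, against 145 and 119 TPM with knockdown. It was the 1 member with both knockdown samples above both controls, although sh-ANP32B replicate 2 exceeded NC replicate 2 only slightly. The log2 fold change was 0.24 (SE 0.145, 95% interval -0.11 to 0.58, limma adjusted p 0.378). Without sh-ANP32B replicate 2 it was 0.37 (limma adjusted p 0.0260).

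Ratios between members within a sample are not moved by scaling of that sample, and 7 of them were compared. With 2 samples in each group the smallest p that a two-sided exact permutation test allows is 0.33, so no ratio could pass a threshold, and the values are given as a description. RBL1 was 0.205 and 0.217 times RBL2 in NC, and 0.126 and 0.0991 times in sh-ANP32B. The mean log2 ratio was lower in sh-ANP32B by a difference of -0.92, against a pooled SD of 0.18, and the groups did not overlap (exact permutation p 0.33). Accordingly RBL1 made up 8.31% and 8.63% of the summed TPM of the pocket proteins in NC, and 5.51% and 4.70% in sh-ANP32B, while RBL2 made up 40.5% and 39.7% in NC and 43.8% and 47.4% in sh-ANP32B. RB1 to RBL2 was 1.26 and 1.30 in NC and 1.16 and 1.01 in sh-ANP32B, a log2 difference of -0.25 with a pooled SD of 0.10 (exact permutation p 0.33).

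The D-type cyclins relative to their kinases shifted in the other direction. The sum of CCND2 and CCND3 was 0.510 and 0.484 times the sum of CDK4 and CDK6 in NC, and 0.656 and 0.852 times in sh-ANP32B. The log2 difference was 0.59 with a pooled SD of 0.19, and the groups did not overlap (exact permutation p 0.33). The sum of CDK4 and CDK6 was 169.9 and 173 TPM in the NC samples, against 102 and 106 TPM with knockdown, so the shift lay mainly in the kinases. The other 4 ratios overlapped between the groups. These were CDK6 to CDK4, with a log2 difference of 0.41, CCND3 to CCND2 (-0.23), CCNE2 to CCNE1 (0.45) and CDK2 to the sum of CDK4 and CDK6 (0.11), with exact permutation p of 0.667, 1.0, 0.667 and 0.667. Only sh-ANP32B replicate 1 stood out in CDK6 to CDK4, at 0.405 against 0.230 to 0.256 in the other samples.

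**Figure D3:**
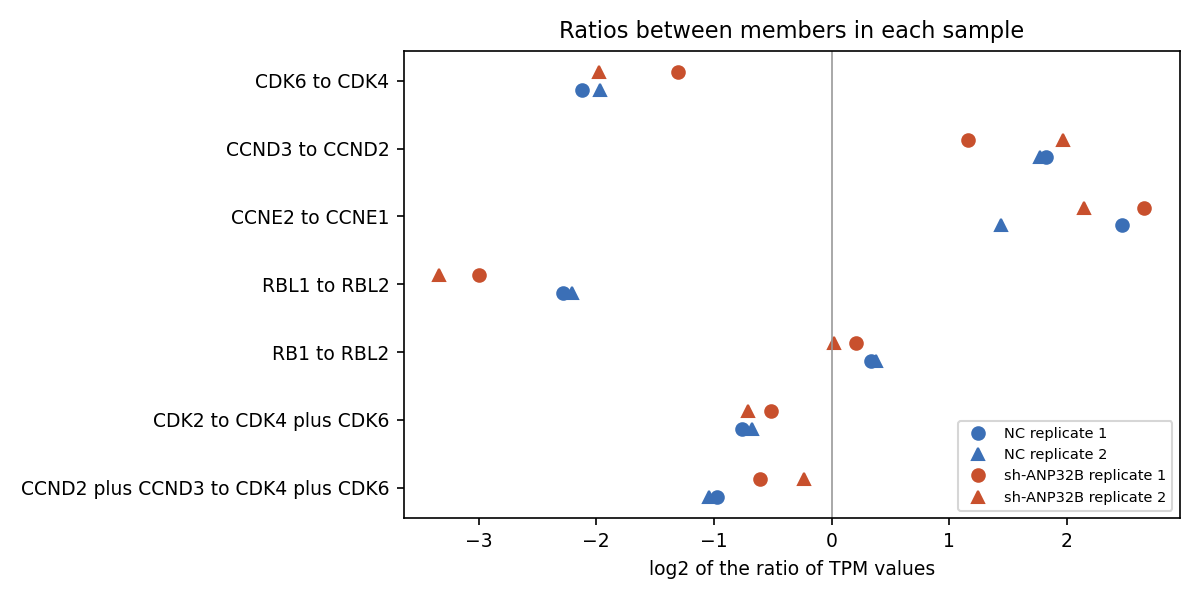
Log2 ratio of TPM values for 7 pairs or sums of members in each sample, NC in blue and sh-ANP32B in orange, with circles for replicate 1 and triangles for replicate 2. The groups are apart for RBL1 to RBL2, RB1 to RBL2 and the D-type cyclins to CDK4 plus CDK6, and they overlap for the other 4.

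The sh-ANP32B replicates differed from each other along GC content. The part of this in the replicate differences of single members was not tested. Over 15427 genes tested with a GC value the difference between sh-ANP32B replicates 2 and 1 followed GC content with a Spearman rho of 0.577 across genes, which share the libraries and are not independent, and between the NC replicates rho was -0.206. The GC content of the longest transcript ranged from 36.9% in CCNE2 to 56.2% in CCND3. CCNE2, RB1, CDK6, RBL1 and RBL2, the 5 members lowest in GC (up to 43.1%), had log2(TPM + 1) differences of -0.78, -0.47, -0.43, -0.58 and -0.27 between sh-ANP32B replicates 2 and 1. CDK4 and CCND3, the 2 members highest in GC, had differences of 0.22 and 0.63. CCND2, CDK2 and CCNE1 lay between, at -0.16, -0.14 and -0.23. Between NC replicates 2 and 1 CCNE2 and CCNE1 differed by -0.51 and 0.44, and the other members by -0.06 to 0.17. After a loess correction for GC content in each sample 6 members had a limma adjusted p under 0.05, all lower. These were CDK4 (log2 fold change -0.91, limma adjusted p 0.00563), CDK2 (-0.70, 0.0103), CCNE1 (-1.45, 0.0171), CCNE2 (-1.22, 0.0254), RBL1 (-0.67, 0.0322) and CDK6 (-0.42, 0.0482). In that fit 1381 of the 15427 genes with a GC value were lower, a background of 8.95% against 1.18% without the correction. RBL2 (0.21), CCND3 (-0.36), RB1 (-0.05) and CCND2 (-0.01) did not pass after GC correction.

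**Figure D4:**
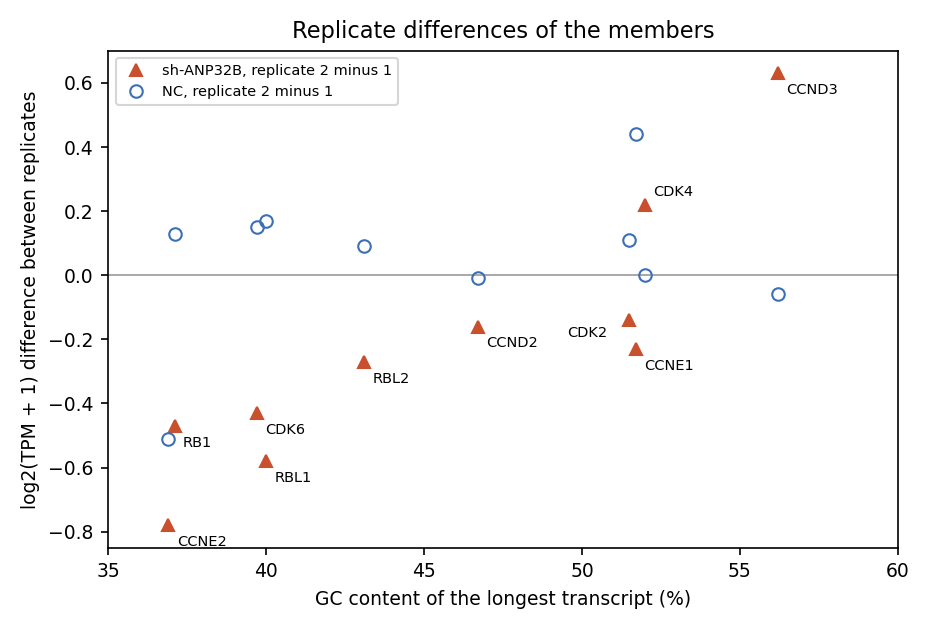
Difference in log2(TPM + 1) between replicates 2 and 1 of sh-ANP32B (orange triangles, named) and of NC (open blue circles) against the GC content of the longest transcript of each member. The 5 members lowest in GC have sh-ANP32B differences from -0.78 to -0.27, and CCND3, the highest at 56.2%, has 0.63.

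Other genes of the pathway were counted in 6 lists of 68 genes, of which 66 were in the table and 65 were tested. Of these 21 fell and 1 rose at an adjusted p under 0.05, where the background was 1.18% lower and 2.14% higher. The counts moved with the samples in the fit, and those of all genes moved with them. Without NC replicates 1 and 2 there were 2 and 3 such genes in the lists and 324 and 273 among all genes, and without sh-ANP32B replicates 1 and 2 there were 48 and 42 in the lists and 4079 and 3487 among all genes, against 559 with every sample. Most of the called genes were S-phase E2F target genes. Of the 25 tested 17 fell and the other 8 did not pass, all 25 had negative log2 fold changes, and the median was -0.86 against 0.08 over all genes. UHRF1, a factor for maintenance DNA methylation, MCM3, a subunit of the replicative helicase, PRIM1, the catalytic primase subunit, and CDC45, a helicase cofactor, had log2 fold changes of -1.13, -1.12, -1.05 and -0.99 (limma adjusted p 0.0440, 0.0270, 0.0448 and 0.0351).

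Of the 8 other cyclins, kinases and their activators tested, 1 fell, the phosphatase CDC25A that activates CDK2, with 36.4 and 33.8 TPM in the NC samples, against 16.3 and 18.6 TPM with knockdown (log2 fold change -0.97, limma adjusted p 0.0425). Of 6 CDK inhibitors 1 rose. CDKN1A, which encodes p21, had 15.4 and 18.3 TPM in the NC samples, against 30.8 and 41.5 TPM with knockdown (log2 fold change 1.05, SE 0.202, limma adjusted p 0.0482). CDKN1B, which encodes p27, had 83.9 and 80.7 TPM in the NC samples, against 110.5 and 126 TPM with knockdown, apart from the controls but short of the threshold (log2 fold change 0.52, limma adjusted p 0.0860). None of the 9 E2F and DP factors tested passed in limma. By the criterion of the study (unadjusted p under 0.05, absolute log2 fold change over 0.5) 5 of them were lower and 0 higher. The background at this criterion was 6.55% lower and 12.1% higher. E2F2 had the most negative log2 fold change of the 9, with 24.3 and 22.7 TPM in the NC samples, against 10.8 and 14.1 TPM with knockdown (log2 fold change -0.88, limma adjusted p 0.0599).

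Of the 6 genes of the MuvB core and its partner MYBL2, which works with it in the MMB complex, MYBL2 fell (log2 fold change -0.83, limma adjusted p 0.0392) and 5 did not pass. Of 11 ubiquitin ligase genes and regulators 2 fell. They were SKP2, the substrate receptor that targets p27 for degradation, with 85.5 and 89.6 TPM in the NC samples, against 46.8 and 48.8 TPM with knockdown (log2 fold change -0.86, limma adjusted p 0.0371), and its cofactor CKS1B (log2 fold change -0.63, limma adjusted p 0.0482). FBXW7, the receptor through which cyclin E is degraded, had a log2 change of 0.03 (limma adjusted p 0.939).

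**Figure D5:**
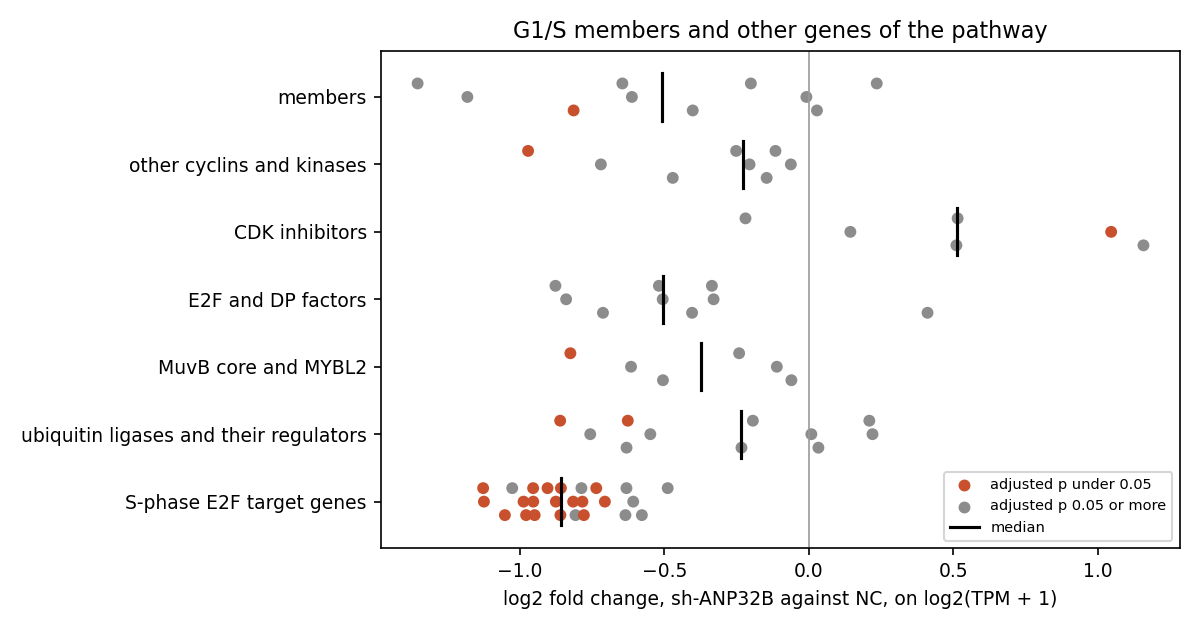
Log2 fold change on log2(TPM + 1), sh-ANP32B against NC, of the 10 members and of the tested genes of the 6 pathway lists, orange where the limma adjusted p was under 0.05, with a black line at each median. The S-phase E2F target genes lie between -1.13 and -0.49, whereas the members spread from -1.35 to 0.24.

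Among 9734 genes with a mean of at least 10 TPM, those closest to CCNE1, the member with the largest log2 fold change, over the 4 samples were TMEM163, ENSG00000277644 and KLHL23, with root mean square distances of 0.11, 0.14 and 0.15 on the log2(TPM + 1) scale after centring on NC. With 4 samples in 2 groups, likeness of this kind says little beyond the size of the group difference and the order of the replicates.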

How the data were processed

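RNA-seq reads of 4 Kasumi-1 samples, 2 NC and 2 sh-ANP32B, were aligned to hg38 by the authors with HISAT2 2.0.5, per the labels. The deposited values are TPM with 1 column per sample. The unit was read from the values, which sum to between 997812 and 998314, and the program, gene annotation and filters behind it are not given in the sources used here. TPM keeps no depth, so the depth is unknown, and neither intervals for counting error nor limits of detection could be given. Gene IDs were matched to GENCODE v44 (hg38) for 16986 of 18567 genes.

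The filter kept a gene that reached 1 TPM in 2 or more samples, and log2(TPM + 1) was compared between the groups with limma 3.58.1 (R 4.3.3, abundance trend), with two-sided p-values adjusted by Benjamini-Hochberg over all 16817 genes tested. The DESeq2 test of the study needs counts and was not run. The fit was checked on simulated data with independent noise. These held no GC trend between samples, so the check does not cover that trend. The members, lists and rules were chosen with earlier results of these data known. All 10 members are named. Of each pathway list at most the 4 passing genes with the largest changes are named, or the largest if none passed, besides CCND1, CDKN1A and CDKN1B. FBXW7, MYC, TSPAN31 and INTS8 were added after their values were seen. The leading gene was chosen on log2 fold change, and the genes most like it needed a mean of at least 10 TPM. Promoter windows are from RefSeq (GRCh38.p14).

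Alternatives were other scalings, filters, a pseudocount of 0.1, GC correction by loess, a replicate block, no abundance trend and leaving out each sample. Leaving out a sample leaves 1 residual degree of freedom, and the lone sample is assumed to vary like the other group. Tables were handled in Python 3.11.15 (pandas 2.3.3, numpy 2.4.6) and drawn with matplotlib 3.10.9.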

Additional observations from a re-analysis of the deposited data

How the results depend on the processing

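Of the members 1 passed in the report, 3 passed with median-of-ratios scaling, 2 without mitochondrial genes, 3 when 1 TPM was required in every sample, 6 after GC correction, 3 with the replicate block, 4 with the replicate block and GC correction, 0 without the abundance trend (where 0 of all genes passed and 3701 had an unadjusted p under 0.05), and 5 by the criterion of the study. Over the fits that each left out a sample the number ranged from 1 to 6. Over all genes, the count of 559 (199 lower, 360 higher) was 2537 after GC correction (1381 lower, 1156 higher), 1473 with the replicate block, 1560 with both (880 lower, 680 higher), 0 without the trend and 3130 by the criterion, and ranged from 273 to 4079 when a sample was left out. Of 518 genes called with median-of-ratios scaling 288 fell and 230 rose, and with upper-quartile scaling 227 fell and 241 rose. Without mitochondrial genes 546 of 17165 genes passed (232 lower, 314 higher). When 1 TPM was required in every sample 812 of 14476 genes passed (298 lower, 514 higher). The 1473 genes with the replicate block, of 16817 tested, were 491 lower and 982 higher. The count over the pathway lists, 22 as reported, was 44 after GC correction, 40 with GC correction and the replicate block and 0 without the trend, and ranged from 2 to 48 when a sample was left out. The cause of these shifts was not tested.

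CDK4, CDK2, CCNE1, CCNE2, CDK6, RBL1 and RBL2 kept their direction in every alternative run. CCND2 changed sign with median-of-ratios scaling (-0.06), upper-quartile scaling (-0.03), without mitochondrial genes (-0.02) and after GC correction with or without the replicate block (-0.01 in both), and its log2 fold change ranged from -0.05 to 0.11 when a sample was left out. That range was -0.51 to 0.11 for CCND3 and -0.24 to 0.22 for RB1. Of the 7 ratios, CCND3 to CCND2 and CCNE2 to CCNE1 changed sign when a sample was left out, with ranges of -0.64 to 0.17 and -0.07 to 0.96. The groups share the replicate numbers 1 and 2 from the sample titles, but deviations of same-numbered samples had a Pearson r of -0.0925 across genes, so the numbers were not taken as pairs. With 2 samples a group and no depth, CDK6 passed in 2 of the alternatives, CCND3 and RBL2 in 1 each, and none of them as reported.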
